A study of Mus musculus with 7 samples.

Results

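The 29 genes described here code for enzymes of cholesterol and fatty acid synthesis, for proteins that control those enzymes and for a cholesterol carrier. They were chosen by function from the 32286 features counted: 7 act in the mevalonate path, 11 lead from squalene to cholesterol and 5 make or desaturate fatty acids. The other 6 are grouped as control genes, among them Stard4, the carrier. Some well-known genes of these pathways are not analysed here. RNA was measured in single thymocytes of C57BL/6 mice with 10x 3′ libraries, 1 for each of 7 sorted populations, to follow double-negative (DN, CD4- CD8-) cells across the point where the αβ and γδ lineages part. The 5 wild-type (WT) libraries came from pooled thymi of female and male mice aged 6 to 8 weeks, depleted of CD4+ and CD8+ cells with beads. WT DN3a cells have not yet passed selection, the γδ- cells of WT DN3b and WT DN4 are αβ precursors past selection, those of WT DN3b γδ+ are γδ precursors past it, and those of WT DN4 γδ+ are immature γδ T cells. Levels of the 7 libraries are listed in that order, with the Lat-KO libraries last. Surface CD71, a transferrin receptor, separated DN3b γδ- from DN3a cells in the sort, and DN4 γδ- cells were CD71+ too. The 2 Lat-KO libraries, Lat-KO DN3 γδ- and Lat-KO DN3 γδint, came from pooled thymi of Lat-/- mice that also carried the Trdc-H2BEGFP reporter, which no WT library carried, and their labels give no age. Their cells were sorted from total thymocytes, with no bead depletion described. These cells lack LAT, an adaptor that relays signals from the pre-TCR and the TCR, and the γδint gate holds cells with an intermediate surface level of γδ TCR. Each library received 500 splenic B lymphocytes before loading. With 1 library per group there is no replicate and no test, and genotype, reporter, bead depletion, sort and library cannot be told apart.

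Cholesterol is built from acetyl-CoA: the mevalonate path makes isoprenoid units, squalene is closed into lanosterol, and a chain of demethylases, reductases and isomerases turns lanosterol into cholesterol. The path is governed by SREBP transcription factors, which SCAP carries out of the endoplasmic reticulum when sterol is scarce and which INSIG proteins hold back when it is plentiful. SREBP2 mainly drives the sterol genes, and SREBP1 the genes of fatty acid synthesis. Dividing T cell precursors need both products for new membranes.

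Levels are given as CPM, the unique molecular identifiers (UMIs) of a gene per 1000000 UMIs of all genes, summed over the thymocyte barcodes of a library. A thymocyte barcode had at least 200 detected genes, at most 15% mitochondrial UMIs and at most 1 UMI of the B cell genes Cd79a, Cd79b and Ms4a1. There were 5274 to 18515 per library and 71081 in all, with a median depth of 5737.5 to 18506 UMIs. Log2 ratios stand with a 95% interval in parentheses that covers counting error only, and a gene was counted in the background if it reached 5 CPM in 1 of the compared groups, which 28 of the 29 members did in every thymocyte comparison with WT DN3a. The exception was Scd1, and 25 to 28 members did in the other thymocyte comparisons. T cell markers summed to 2961 to 10000 CPM in these barcodes. B cell markers summed to 18.3 to 66.1 CPM, against 13921 to 30506 CPM in the spiked B-like barcodes. Lat itself stood at 357 to 648 CPM in the WT libraries and at 4.83 and 0.899 CPM in those from Lat-KO mice. The 21 pairs of libraries shared 18 to 93 barcode sequences, 0.2175% to 0.713% of the smaller library. Cycling barcodes, with at least 2 UMIs of Mki67 and Top2a, made up 80.8% to 88.4% of WT DN3b γδ-, WT DN4 γδ- and WT DN3b γδ+ but 6.16% of WT DN3a, 18.4% of WT DN4 γδ+, 8.87% and 23.3% of the Lat-KO γδ- and γδint libraries. With every barcode thinned to 4000 UMIs these shares were 60.8% to 70.03%, 2.20%, 15.03%, 4.47% and 19.3%.

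The upstream sequences of 4 members are shown because these genes lay on either side of the pattern in WT DN4 γδ+ cells that follows: Hmgcs1 and Fasn were lower there than in WT DN3a cells, Ebp and Insig2 were higher. Each holds the 250 bases before the RefSeq start of the gene in GRCm38.p6, read along the gene's strand, and overlaps no annotated exon. Hmgcs1 lies at chr13:119690101-119690350 (+), Fasn at chr11:120824548-120824797 (-), Ebp at chrX:8193513-8193762 (-) and Insig2 at chr1:121332590-121332839 (-). Capitals mark TCACNCCAC, a form of the sterol regulatory element, and CCAAT, the NF-Y box, on either strand. The E-box CACGTG was searched too. In the Fasn window a CCAAT on each strand overlaps by 2 letters, and no other matches overlap in these 4 windows.
Hmgcs1: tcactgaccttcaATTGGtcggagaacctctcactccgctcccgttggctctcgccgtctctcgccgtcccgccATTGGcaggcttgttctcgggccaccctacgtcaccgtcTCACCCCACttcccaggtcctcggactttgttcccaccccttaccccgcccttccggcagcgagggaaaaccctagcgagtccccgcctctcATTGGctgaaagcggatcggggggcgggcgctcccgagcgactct
Fasn: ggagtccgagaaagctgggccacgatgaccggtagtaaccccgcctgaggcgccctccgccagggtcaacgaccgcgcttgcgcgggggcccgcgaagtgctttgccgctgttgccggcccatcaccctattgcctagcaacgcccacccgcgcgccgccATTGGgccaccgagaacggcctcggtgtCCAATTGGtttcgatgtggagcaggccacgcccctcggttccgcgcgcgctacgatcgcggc
Ebp: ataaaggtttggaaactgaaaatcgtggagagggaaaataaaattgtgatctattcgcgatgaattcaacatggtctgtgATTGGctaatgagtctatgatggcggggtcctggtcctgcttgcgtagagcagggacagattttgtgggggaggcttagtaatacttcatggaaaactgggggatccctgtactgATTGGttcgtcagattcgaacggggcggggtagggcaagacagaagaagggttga
Insig2: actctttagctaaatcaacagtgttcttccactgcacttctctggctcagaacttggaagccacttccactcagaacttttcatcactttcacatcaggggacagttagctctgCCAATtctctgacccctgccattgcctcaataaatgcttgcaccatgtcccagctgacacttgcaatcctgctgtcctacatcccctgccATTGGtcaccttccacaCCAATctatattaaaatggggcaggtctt
Some genes have several tabulated windows, and a gene was counted if any of its windows held the letters. Hmgcs1 was the 1 member of 23 with TCACNCCAC, which 1.22% of all 27025 genes with a window had, and 1.20% of the 7977 of them with at least 5 CPM. CCAAT was found for 19 of the 23 members, against 37.5% of all genes and 41.3% of those with at least 5 CPM. The 4 members without it were Acaca, Acat2, Acly and Scap. CACGTG was found for 5 of 23, Dhcr7, Hsd17b7, Insig1, Sc5d and Scap, against 6.86% and 10.3% of genes. Fdps, Fdft1, Sqle, Stard4, Scd1 and Scd2 were not searched. A match describes letters only. All 4 printed windows hold CCAAT, as most members do, and its part in the differences was not tested.

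WT DN4 γδ+ cells had the lowest level of most members. All 29 genes made up 0.0662% of all UMIs there, against 0.0982% to 0.118% in the other 4 WT libraries and 0.146% and 0.189% in Lat-KO DN3 γδ- and Lat-KO DN3 γδint. Over WT DN3a, the median log2 ratio of the members was -0.97, while the median over all 9574 genes counted was -0.01. Lower values were found for 26 of the 29 members, each with an interval that left out 0, beside 42.9% of all genes counted, and higher values for Ebp, Pmvk and Insig2. At least 2-fold lower were 13 members, of which Scd1 did not reach 5 CPM, so 12 of 28 compare with 8.46% of all genes counted, and none was 2-fold higher, beside 11%. Scaling by TMM (trimmed mean of M-values) also gave 13, and leaving ribosomal and mitochondrial UMIs out of the total gave 15. Of those that reached 5 CPM these were 12 of 28, beside 8.16% of all genes so scaled, and 14 of 28, beside 9.72%.

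**Figure D1:**
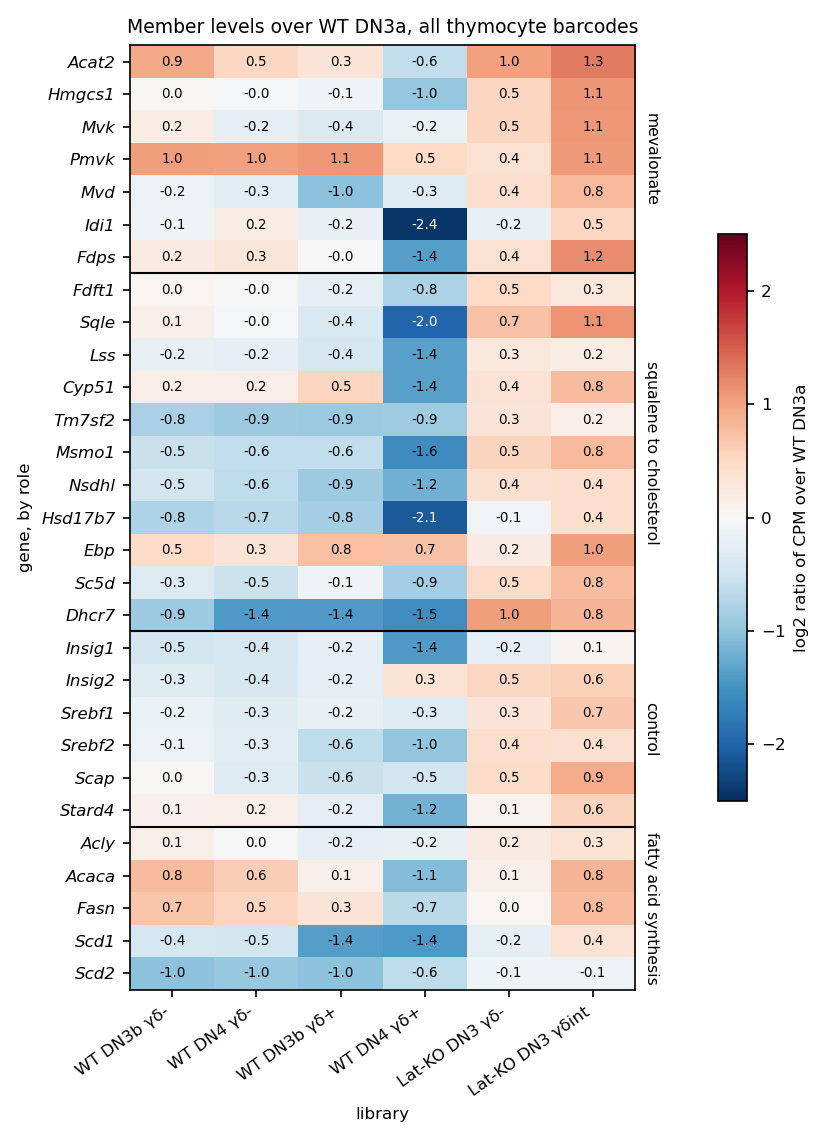
Log2 ratio of CPM over WT DN3a for each of the 29 members (rows, grouped by role) in the other 6 libraries (columns), all thymocyte barcodes; colour runs from lower to higher than WT DN3a. The WT DN4 γδ+ column is lower for 26 of 29 members, and the Lat-KO DN3 γδint column is higher for 28 of 29.

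The largest difference was in the mevalonate path. Idi1 (ENSMUSG00000058258, chr13:8885501-8892451 + in mm10), the isomerase that interconverts the basic isoprenoid units, stood at 92.0 CPM in WT DN3a, 86.0 then 105 in the γδ- DN3b and DN4 cells, 80.4 then 17.0 in the γδ+ DN3b and DN4 cells, and 81.2 and 133 in Lat-KO γδ- and γδint cells. The WT DN4 γδ+ level lay below the other 6, with no overlap of their counting intervals, and the log2 ratio over WT DN3a was -2.44 (-2.53 to -2.35). Fdps (chr3:89093588-89101959 -), which joins isoprenoid units into farnesyl diphosphate, stood at 153 CPM in WT DN3a, 177 then 188 in the γδ- DN3b and DN4 cells, 153 then 59.1 in the γδ+ DN3b and DN4 cells, and 199 and 346 in Lat-KO γδ- and γδint cells. WT DN4 γδ+ was again alone at the bottom, with a log2 ratio of -1.37 (-1.42 to -1.31) over WT DN3a. The other mevalonate enzymes differed less. Hmgcs1, the synthase at the entry of the path, reached 31.003 CPM in WT DN4 γδ+ and 60.7 in WT DN3a, a log2 ratio of -0.97 (-1.05 to -0.89). Acat2, the thiolase before it, stood at 21.5 CPM in WT DN3a, 41.4 then 30.9 in the γδ- DN3b and DN4 cells, 26.9 then 14.1 in the γδ+ DN3b and DN4 cells, and 43.8 and 53.1 in Lat-KO γδ- and γδint cells, also lowest in WT DN4 γδ+, at -0.61 (-0.74 to -0.49) over WT DN3a. Mvk and Mvd, a kinase and the decarboxylase of the path, had log2 ratios of -0.17 (-0.30 to -0.03) and -0.32 (-0.45 to -0.19). Pmvk, the next kinase, went the other way, at 0.50 (0.38 to 0.63). The 7 mevalonate genes thus had a median of -0.61, with 2 of 7 at least 2-fold lower, beside the 8.46% of all genes.

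The enzymes from squalene to cholesterol held most of the larger differences: 7 of 11 were at least 2-fold lower in WT DN4 γδ+ than in WT DN3a, again beside 8.46%, with a median log2 ratio of -1.36. Sqle (chr15:59315077-59331192 +), the squalene epoxidase that limits the second part of the path, stood at 34.7 CPM in WT DN3a, 37.8 then 33.990 in the γδ- DN3b and DN4 cells, 26.8 then 8.78 in the γδ+ DN3b and DN4 cells, and 57.7 and 75.8 in Lat-KO γδ- and γδint cells. Its level in WT DN4 γδ+ was below all others, at a log2 ratio of -1.98 (-2.12 to -1.85). Hsd17b7, a keto-steroid reductase, had 12.1 CPM in WT DN3a, 7.06 then 7.43 in the γδ- DN3b and DN4 cells, 6.74 then 2.81 in the γδ+ DN3b and DN4 cells, and 11.5 and 16.4 in Lat-KO γδ- and γδint cells. Its log2 ratio was -2.11 (-2.34 to -1.87). Cyp51 (chr5:4081145-4104746 -), the lanosterol demethylase, was measured at 34.002 CPM in WT DN3a, 38.0 then 38.3 in the γδ- DN3b and DN4 cells, 49.2 then 13.2 in the γδ+ DN3b and DN4 cells, and 43.6 and 58.6 in Lat-KO γδ- and γδint cells, so that it was highest in WT DN3b γδ+ and lowest in WT DN4 γδ+ among the WT libraries. Its log2 ratio over WT DN3a was -1.36 (-1.48 to -1.25). Msmo1, a methylsterol oxidase, stood at 43.7 CPM in WT DN3a, 29.9 then 28.5 in the γδ- DN3b and DN4 cells, 28.6 then 14.7 in the γδ+ DN3b and DN4 cells, and 64.0 and 77.048 in Lat-KO γδ- and γδint cells, and the log2 ratio was -1.57 (-1.68 to -1.47). Dhcr7, the reductase that completes cholesterol, had another pattern, with 55.7 CPM in WT DN3a, 29.6 then 20.9 in the γδ- DN3b and DN4 cells, 20.8 then 19.1 in the γδ+ DN3b and DN4 cells, and 115 and 99.8 in Lat-KO γδ- and γδint cells. Its level was nearly as low in WT DN4 γδ- and WT DN3b γδ+ as in WT DN4 γδ+, and its log2 ratio over WT DN3a was -1.54 (-1.64 to -1.45) in the latter. Lss, the cyclase that makes lanosterol, and Nsdhl, a sterol dehydrogenase, were the other 2 at least 2-fold lower, at -1.36 (-1.58 to -1.14) and -1.20 (-1.35 to -1.05). Fdft1 (squalene synthase), Tm7sf2 (a sterol reductase) and Sc5d (a sterol desaturase) were lower by less, at -0.79 (-0.92 to -0.65), -0.88 (-1.11 to -0.65) and -0.86 (-0.98 to -0.75). Ebp, a sterol isomerase late in the path, was higher, at 40.1 CPM in WT DN3a, 55.0 then 50.4 in the γδ- DN3b and DN4 cells, 67.6 then 66.9 in the γδ+ DN3b and DN4 cells, and 46.4 and 82.7 in Lat-KO γδ- and γδint cells. The ratio over WT DN3a was 0.74 (0.66 to 0.81), and the level was like that of WT DN3b γδ+.

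**Figure D2:**
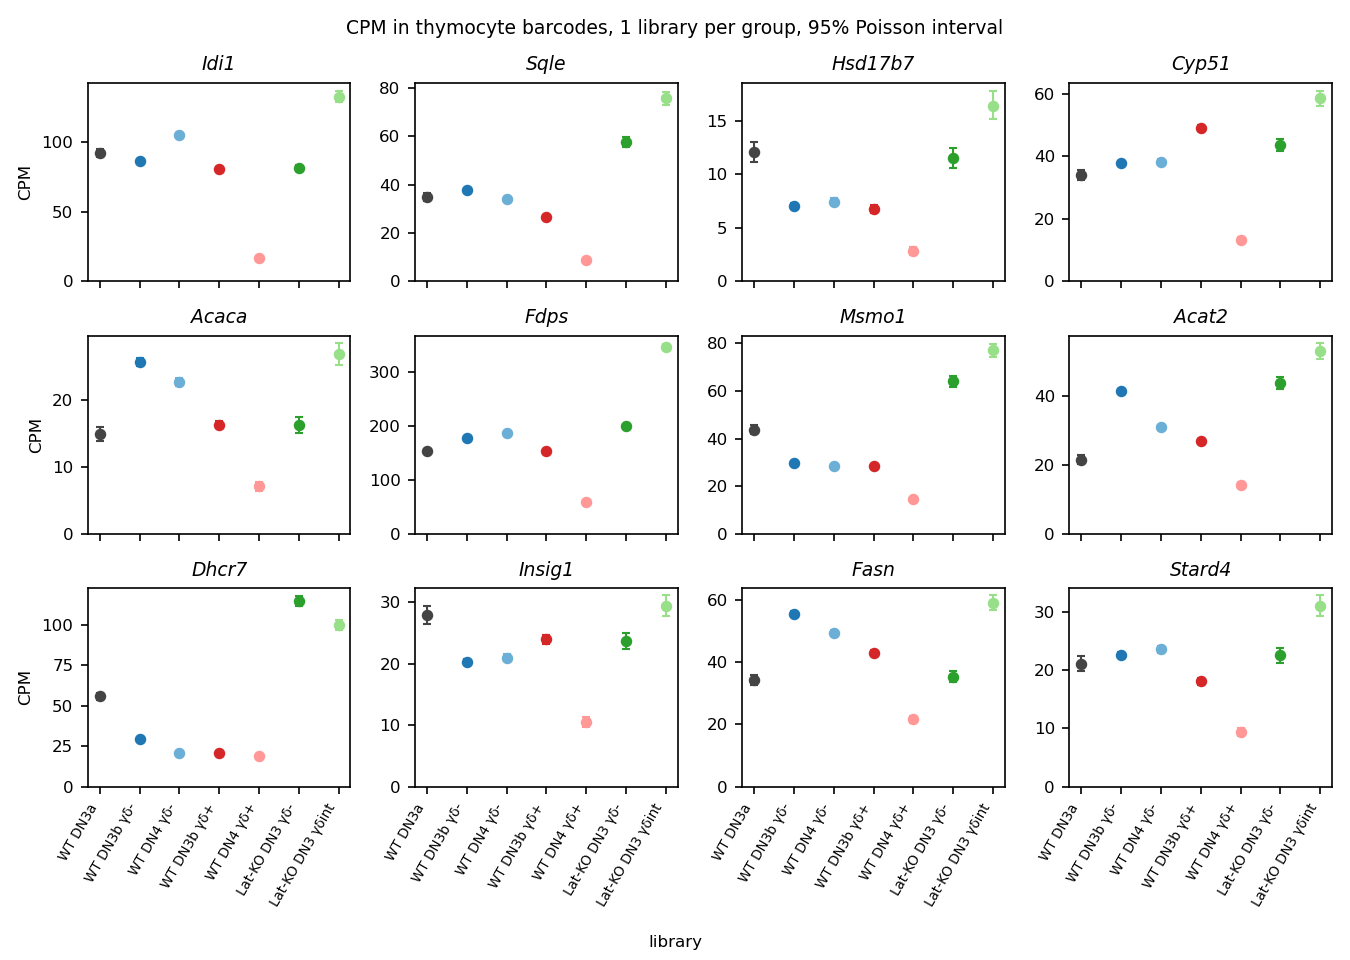
CPM of the 12 members with the widest range over the WT libraries, 1 panel per gene and 1 point per library, with 95% Poisson intervals for counting error. In all 12 panels WT DN4 γδ+ is the lowest point with no overlap of intervals, though for Dhcr7 it lies close to WT DN3b γδ+ and WT DN4 γδ-.

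Among the control genes, the INSIG pair parted. Insig1 (chr5:28071363-28078662 +), which holds SCAP and SREBP in the endoplasmic reticulum and is itself an SREBP target, stood at 27.8 CPM in WT DN3a, 20.3 then 20.9 in the γδ- DN3b and DN4 cells, 23.9 then 10.5 in the γδ+ DN3b and DN4 cells, and 23.6 and 29.4 in Lat-KO γδ- and γδint cells. Insig2 (chr1:121304353-121332589 -), its paralogue, stood at 16.4 CPM in WT DN3a, 13.2 then 12.5 in the γδ- DN3b and DN4 cells, 13.9 then 20.9 in the γδ+ DN3b and DN4 cells, and 23.5 and 24.6 in Lat-KO γδ- and γδint cells. In WT DN4 γδ+ over WT DN3a, Insig1 was lower, at -1.41 (-1.54 to -1.28), and Insig2 higher, at 0.35 (0.23 to 0.47), and these 2 intervals lay on either side of 0. WT DN4 γδ+ held the highest Insig2 level of the WT libraries and the lowest Insig1 level of all 7. Srebf2, the gene of SREBP2, stood at 73.6 CPM in WT DN3a, 66.5 then 61.2 in the γδ- DN3b and DN4 cells, 47.5 then 37.3 in the γδ+ DN3b and DN4 cells, and 99.5 and 97.4 in Lat-KO γδ- and γδint cells, and Srebf1, that of SREBP1, at 17.0 CPM in WT DN3a, 15.2 then 13.9 in the γδ- DN3b and DN4 cells, 15.033 then 13.5 in the γδ+ DN3b and DN4 cells, and 21.3 and 27.2 in Lat-KO γδ- and γδint cells. The Srebf2 ratio in WT DN4 γδ+ over WT DN3a was -0.98 (-1.05 to -0.91) and that of Srebf1 -0.33 (-0.46 to -0.20), so Srebf2 was lower by more. Srebf1 varied least of all 29 members over the WT libraries, by 0.33 on the log2 scale, and Idi1 most, by 2.63. Stard4, a carrier of cholesterol between membranes, stood at 21.2 CPM in WT DN3a, 22.7 then 23.7 in the γδ- DN3b and DN4 cells, 18.1 then 9.34 in the γδ+ DN3b and DN4 cells, and 22.6 and 31.1 in Lat-KO γδ- and γδint cells, a log2 ratio of -1.18 (-1.32 to -1.04) for WT DN4 γδ+. Scap, the escort of SREBP, had -0.47 (-0.59 to -0.35).

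The genes of fatty acid synthesis were lower in WT DN4 γδ+ as well, by a median log2 ratio of -0.67 over 5 genes. Acaca, the acetyl-CoA carboxylase, stood at 14.9 CPM in WT DN3a, 25.7 then 22.7 in the γδ- DN3b and DN4 cells, 16.3 then 7.07 in the γδ+ DN3b and DN4 cells, and 16.2 and 26.8 in Lat-KO γδ- and γδint cells. Fasn, the fatty acid synthase, stood at 34.2 CPM in WT DN3a, 55.6 then 49.3 in the γδ- DN3b and DN4 cells, 42.8 then 21.5 in the γδ+ DN3b and DN4 cells, and 35.3 and 59.1 in Lat-KO γδ- and γδint cells. Both were lowest in WT DN4 γδ+, at -1.08 (-1.24 to -0.91) and -0.67 (-0.76 to -0.57) over WT DN3a. Acly, which supplies acetyl-CoA from citrate, was lower by less, at -0.19 (-0.26 to -0.12). Scd1 and Scd2, the stearoyl-CoA desaturases, are described with the B cells.

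Depth and the ribosomal share were close in these libraries, while markers of some other cell types were not. Median depth was 6418 UMIs in WT DN4 γδ+ and 7275 in WT DN3a, and ribosomal genes took 30.4% and 32.3% of the UMIs. Of the 3 NK markers, Ncr1 was at 0 in all 7 libraries, and the sum was 13.7 CPM in WT DN4 γδ+, nearly all from Klrd1, against 0 to 0.296 CPM elsewhere. The 4 erythroid markers summed to 34.5 CPM in WT DN4 γδ+ and 0.168 in WT DN3a, against 23.2 to 161 CPM in the other 3 WT libraries. The 3 stromal and epithelial markers summed to 104 and 216 CPM in WT DN4 γδ+ and WT DN3a, with Col1a1 at 0.372 and 0.0744 CPM, and the 5 myeloid markers to 154 and 151 CPM. The 3 plasmacytoid markers summed to 1001 and 734 CPM, with Siglech at 0 in both libraries. Most of each sum came from a single gene. For the plasmacytoid markers it was Ccr9 at 894 CPM in WT DN4 γδ+ and Bst2 at 548 in WT DN3a. For the myeloid ones it was Cst3, at 126 and 128 CPM. For the stromal and epithelial ones it was Pecam1 at 74.75 CPM in WT DN4 γδ+ and Epcam at 170 in WT DN3a. The part of these cell types in the difference was not tested. In the barcodes of the added splenic B cells, the members' median was -0.22 in WT DN4 γδ+ over WT DN3a, beside 0.04 over all genes counted. It rests on few UMIs: 26 members gave a ratio, of which 2 had an interval below 0 and 0 had one above. Idi1 had 3 UMIs there (4.98 CPM, 95% interval 1.03 to 14.6) against 9 in the WT DN3a B-like barcodes (18.5 CPM, 8.44 to 35.1). Whatever the B-like values share with the thymocyte difference was not tested.

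The difference in WT DN4 γδ+ was found in both cycling states. Non-cycling barcodes had no UMI of Mki67 or Top2a, a call that depends on depth: only 993 of WT DN3b γδ-, 1002 of WT DN4 γδ- and 1053 of WT DN3b γδ+ met it, with median depths of 4438.5 to 7658 UMIs, against 5429 in WT DN3a and 5600 in WT DN4 γδ+. Among non-cycling barcodes the members' median in WT DN4 γδ+ over WT DN3a was -1.08, beside -0.02 over all genes, and 15 of the 28 members that reached 5 CPM were at least 2-fold lower, beside 9.04% of all genes counted. Among cycling barcodes the median was -0.96, beside -0.02, and 13 of 28 members were at least 2-fold lower, beside 8.54%. Idi1 in non-cycling barcodes stood at 86.5 CPM in WT DN3a, 83.4 then 90.7 in the γδ- DN3b and DN4 cells, 106 then 8.30 in the γδ+ DN3b and DN4 cells, and 77.5 and 126 in Lat-KO γδ- and γδint cells. That put WT DN4 γδ+ at a log2 ratio of -3.38 (-3.57 to -3.21) over WT DN3a, the largest of any member. In cycling barcodes Idi1 stood at 132 CPM in WT DN3a, 86.2 then 106 in the γδ- DN3b and DN4 cells, 77.8 then 30.2 in the γδ+ DN3b and DN4 cells, and 98.6 and 142 in Lat-KO γδ- and γδint cells. WT DN4 γδ+ was lowest there too. Sqle, Hsd17b7, Cyp51 and Fdps followed in non-cycling barcodes with -2.73 (-2.97 to -2.497), -2.54 (-2.93 to -2.16), -2.06 (-2.26 to -1.87) and -1.73 (-1.81 to -1.64).

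**Figure D3:**
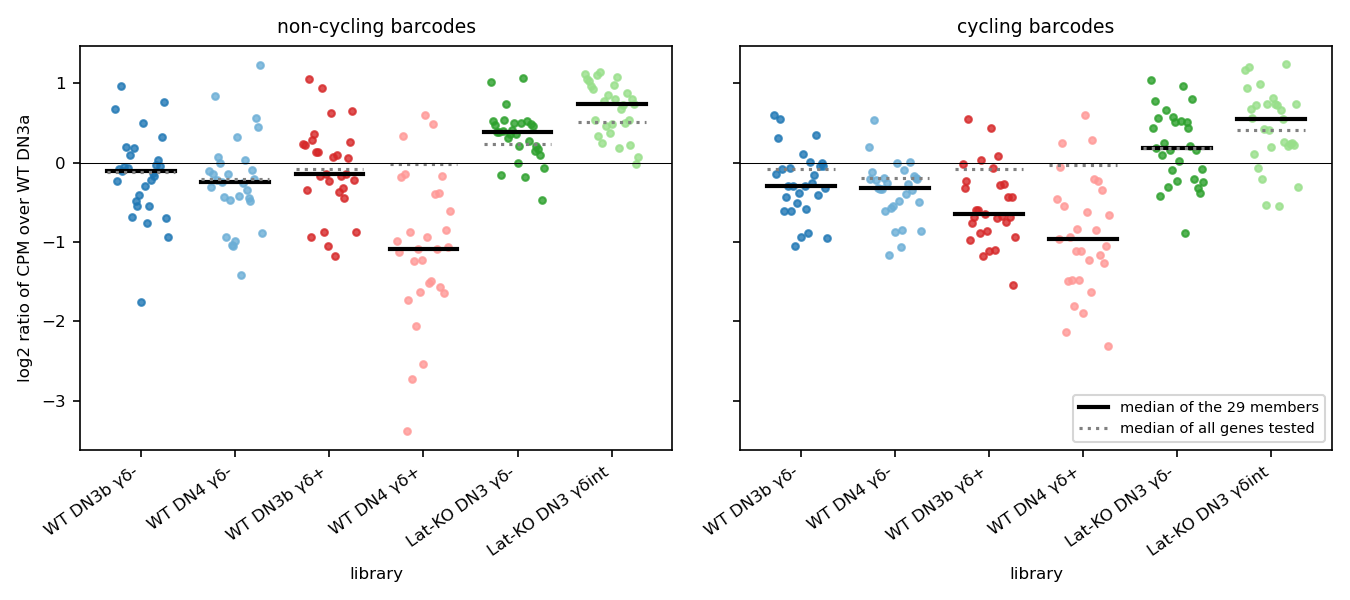
Log2 ratio over WT DN3a of each member (points) in the other 6 libraries, for non-cycling and cycling barcodes; the black line is the members' median and the dotted line the median over all genes counted. In WT DN4 γδ+ the members' median is -1.08 in non-cycling and -0.96 in cycling barcodes, while the median over all genes is -0.02 in both.

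Within WT DN4 γδ+, cycling barcodes had more of most of these transcripts than non-cycling ones. The members' median log2 ratio, cycling over non-cycling, was 0.33, beside -0.10 over all genes, and 5 of the 25 that reached 5 CPM were at least 2-fold higher, beside 7.44% of all genes counted. These were Idi1 at 1.86 (1.66 to 2.07), Sqle at 1.49 (1.22 to 1.76), Cyp51 at 1.48 (1.27 to 1.70), Acaca at 1.35 (1.05 to 1.65) and Stard4 at 1.04 (0.79 to 1.29). Lower in cycling barcodes were 8 of the 29, of which Insig2, Mvd and Scd2 had intervals below 0. In WT DN3b γδ+ the median was -0.18, beside -0.04, with Idi1 at -0.44 (-0.55 to -0.34) and Sqle at -0.50 (-0.67 to -0.32). TMM scaling added 0.29 to the ratios of all genes in this comparison and turned the members' median to 0.10, still below that over all genes. The other WT medians were 0.23 at DN3a and 0.07 and 0.23 in the γδ- DN3b and DN4 cells, beside -0.06, -0.02 and -0.01 over all genes. For Lat-KO γδ- and γδint cells they were 0.13 and 0.04, beside -0.11 and -0.15. Cycling barcodes were deeper in every library, with median depths of 12113 to 19996 UMIs.

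Set against WT DN3b γδ+, the γδ library of the preceding stage, WT DN4 γδ+ was lower as well. The median log2 ratio was -0.58, beside 0.13 over all genes, and 7 of the 27 members that reached 5 CPM were at least 2-fold lower, beside 6.32%. Idi1 had a ratio of -2.25 (-2.33 to -2.16), Cyp51 -1.90 (-1.99 to -1.80) and Sqle -1.61 (-1.73 to -1.49). The others were Fdps, Hsd17b7, Acaca and Insig1, between -1.37 and -1.19. Mvd, Insig2 and Scd2 were higher, at 0.70 (0.58 to 0.81), 0.59 (0.49 to 0.68) and 0.38 (0.34 to 0.41). In non-cycling barcodes alone the median was -1.01, beside 0.14, and 15 of 27 members were at least 2-fold lower, beside 10.9%. Idi1 reached -3.67 (-3.88 to -3.47) and Cyp51 -3.00 (-3.23 to -2.78) in that comparison. In cycling barcodes the median was -0.41, beside 0.08.

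Over all barcodes, the 3 strongly cycling WT libraries showed no common move of the members over WT DN3a. In WT DN3b γδ- the median log2 ratio was -0.10, beside -0.13 over all genes. In WT DN4 γδ- it was -0.23, beside -0.25, and in WT DN3b γδ+ -0.23, beside -0.12. TMM scaling raised all ratios of these comparisons by 0.40, 0.40 and 0.30, and turned the medians to 0.30, 0.17 and 0.07. No direction can thus be given for the list over all barcodes. At least 2-fold higher was 1 of 28 members in each, Pmvk, beside 9.89% and 7.62% for the γδ- DN3b and DN4 cells and 10.7% for WT DN3b γδ+. At least 2-fold lower was 1 member in WT DN3b γδ-, beside 18%, 1 in WT DN4 γδ-, beside 21.2%, and 3 of 28 in WT DN3b γδ+, beside 16.9%. With TMM scaling 4, 2 and 2 of the 28 were at least 2-fold higher, beside 19.2%, 15.6% and 16.9% of all genes so scaled, and 0, 1 and 1 lower, beside 9.77%, 12.6% and 11.3%.

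Single members did differ among these libraries. Pmvk stood at 15.2 CPM in WT DN3a, 31.4 then 31.1 in the γδ- DN3b and DN4 cells, 32.2 then 21.6 in the γδ+ DN3b and DN4 cells, and 19.9 and 32.1 in Lat-KO γδ- and γδint cells, lowest in WT DN3a, and its ratio over WT DN3a was 1.04 (0.94 to 1.15), 1.03 (0.93 to 1.14) and 1.08 (0.97 to 1.18) in WT DN3b γδ-, WT DN4 γδ- and WT DN3b γδ+. Acat2, Acaca and Fasn were also higher in WT DN3b γδ-, at 0.94 (0.86 to 1.03), 0.78 (0.68 to 0.89) and 0.70 (0.63 to 0.77). Dhcr7 was lower, at -0.91 (-0.97 to -0.86), -1.41 (-1.48 to -1.35) and -1.42 (-1.49 to -1.35) in the same order. Mvd was at least 2-fold lower in WT DN3b γδ+ alone, at 17.7 CPM in WT DN3a, 15.9 then 14.6 in the γδ- DN3b and DN4 cells, 8.73 then 14.2 in the γδ+ DN3b and DN4 cells, and 23.8 and 31.1 in Lat-KO γδ- and γδint cells, a ratio of -1.02 (-1.13 to -0.90) over WT DN3a. In non-cycling barcodes the medians were -0.11, -0.24 and -0.14, beside -0.12, -0.21 and -0.08 over all genes. The members at least 2-fold lower were then 1 in WT DN3b γδ-, beside 11.4%, 3 in WT DN4 γδ-, beside 12.9%, and 2 in WT DN3b γδ+, beside 13.2%. None of those reaching 5 CPM was 2-fold higher in WT DN4 γδ-, beside 7.12%, and 1, Pmvk, was in WT DN3b γδ+, beside 9.38%. In cycling barcodes the medians, in the same order, were -0.29, -0.32 and -0.65, beside -0.09, -0.19 and -0.08. Higher there were 6, 3 and 4 of the 29 members, beside 44.0%, 35.4% and 44.0% of all genes. At least 2-fold lower were 1, 2 and 3 of 28, beside 9.65%, 12.9% and 9.90%. TMM scaling would add 0.40, 0.42 and 0.29 to all these ratios, which leaves only the WT DN3b γδ+ median below 0.

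Between the 2 lineages at the DN3b stage the members differed by a median log2 ratio of -0.24 in γδ+ over γδ-, beside -0.03 over all genes. None of the 27 that reached 5 CPM was 2-fold higher, beside 5.61% of all genes, or 2-fold lower, beside 2.68%. Cyp51 and Ebp were higher in WT DN3b γδ+, at 0.37 (0.34 to 0.41) and 0.30 (0.27 to 0.33), and so was Insig1 at 0.23 (0.18 to 0.29). Mvd was lower, at -0.87 (-0.94 to -0.79), followed by Acaca at -0.65 (-0.71 to -0.60) and Acat2 at -0.62 (-0.67 to -0.57). In cycling barcodes the median was -0.28. In non-cycling ones it was 0.07, and its sign depended on the processing: it was -0.041 without ribosomal and mitochondrial UMIs, -0.044 with barcodes weighted equally and -0.029 with states called after thinning. Along the αβ path, WT DN4 γδ- over WT DN3b γδ- gave a median of -0.10, beside -0.12, and the members lay between -0.50 (Dhcr7) and 0.29 (Idi1).

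The Lat-KO libraries had the highest summed level of the members. In Lat-KO DN3 γδ- over WT DN3a the members' median log2 ratio was 0.38, beside 0.24 over all genes, with 24 of 29 higher, beside 74.4% of all genes, and 2 of 28 at least 2-fold higher, beside 3.47% of all genes. In Lat-KO DN3 γδint it was 0.77, beside 0.46, with 28 of 29 higher, beside 78.9%, and 7 of 28 at least 2-fold higher, beside 14.1%. All 7 were enzymes on the sterol path. They were Acat2 at 1.30 (1.20 to 1.41), Fdps at 1.18 (1.14 to 1.22), Sqle at 1.13 (1.04 to 1.21), Hmgcs1 at 1.10 (1.04 to 1.17), Mvk at 1.09 (0.96 to 1.21), Pmvk at 1.07 (0.94 to 1.20) and Ebp at 1.04 (0.96 to 1.12). By role, 5 of 7 mevalonate genes and 2 of 11 of the later sterol enzymes were at least 2-fold higher, and none of the 6 control and 5 fatty acid genes, with medians of 1.09, 0.77, 0.57 and 0.37. Lower alone was Scd2, at -0.10 (-0.14 to -0.06), joined under TMM scaling by Fdft1, Lss, Tm7sf2, Insig1 and Acly.

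The make-up of the libraries moved with these ratios. Ribosomal genes took 18.2% of the UMIs in Lat-KO DN3 γδint, against 27.7% to 33.7% in the other 6, and 19.8% of those in its spiked B-like barcodes, against 29.8% to 36.2%. Leaving ribosomal and mitochondrial UMIs out of the total brought the Lat-KO DN3 γδint median to 0.43 and TMM scaling to 0.41. With either, no member was 2-fold higher, beside 5.23% and 4.96% of all genes. For Lat-KO DN3 γδ- the medians were 0.25 and 0.18, again with none, beside 2.37% and 1.99%. Both settings shift the ratio of every gene alike, by -0.34 and -0.36 in γδint and by -0.14 and -0.20 in γδ- cells. The distance between the members' median and that over all genes thus stays the same. In the B-like barcodes the members' median was 0.64 in Lat-KO DN3 γδint over WT DN3a, beside 0.57 over all genes, and 0.01 in Lat-KO DN3 γδ-, beside 0.21. These medians cover the 25 and 26 members that gave a ratio. At least 2-fold higher in these B-like barcodes were 9 of 25 in γδint, beside 27.8% of all genes counted, and 3 of 26 in γδ-, beside 15.1%. The part of this difference between libraries in the thymocyte ratios was not tested further.

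Hmgcs1, the entry synthase, stood at 60.7 CPM in WT DN3a, 62.1 then 59.0 in the γδ- DN3b and DN4 cells, 57.3 then 31.003 in the γδ+ DN3b and DN4 cells, and 87.6 and 130.2 in Lat-KO γδ- and γδint cells. It was highest in Lat-KO DN3 γδint and lowest in WT DN4 γδ+. Dhcr7 and Acat2 were the 2 members at least 2-fold higher in Lat-KO DN3 γδ-, at 1.04 (0.98 to 1.10) and 1.02 (0.92 to 1.13) over WT DN3a, while Insig1 and Idi1 were lower there, at -0.24 (-0.35 to -0.13) and -0.18 (-0.24 to -0.12). Non-cycling barcodes gave medians of 0.39 and 0.74, beside 0.24 and 0.52 over all genes. At least 2-fold higher were then 2 members in Lat-KO DN3 γδ-, beside 3.04%, and 6 in Lat-KO DN3 γδint, beside 12.5%. In cycling barcodes the median of Lat-KO DN3 γδ- was that of all genes, 0.19 beside 0.19, and that of Lat-KO DN3 γδint was 0.55, beside 0.41. There 1 and 3 of 28 members were at least 2-fold higher, beside 6.04% and 12.1%. Between the 2 Lat-KO libraries, γδint over γδ- had a median of 0.39, beside 0.19, and none was 2-fold higher, beside 4.59%, or lower, beside 3.49%. Ebp and Fdps led at 0.83 (0.75 to 0.91) and 0.80 (0.76 to 0.84). Among the others, Fasn had 0.74 (0.65 to 0.83) and Idi1 0.71 (0.65 to 0.77). Of the 5 lower members Fdft1 was lowest at -0.22, and Dhcr7 had -0.20 (-0.26 to -0.14). The same pair of libraries differed by a median of 0.38 in B-like barcodes, over the 26 members with counts, beside 0.30 over all genes. There 22 members were higher and 4 lower, with Idi1 highest at 1.83. Ebp stood at 47.1 CPM in γδ- and 93.4 in γδint B-like barcodes, and Fdps at 31.4 and 70.6, on 22 to 41 UMIs each. The part of this in the thymocyte ratios was not tested. Scaling by TMM and leaving out ribosomal and mitochondrial UMIs brought the thymocyte median to 0.22 and 0.18, by shifts of -0.16 and -0.20 in the ratios of all genes.

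Counted per barcode, the members were present at a few UMIs each. Every barcode was thinned to 4000 UMIs and shallower ones were left out, 343 to 1769 per library, so that depth was equal. The median barcode then held 4 UMIs of the 29 genes in 4 of the WT libraries, 2 in WT DN4 γδ+, and 5 and 7 in the Lat-KO γδ- and γδint cells. No UMI of any member was found in 9.65% of WT DN4 γδ+ barcodes, against 2.58% to 4.25% in the other WT libraries and 1.37% and 0.485% in the Lat-KO ones. The 10th and 90th percentiles were 1 and 5 UMIs in WT DN4 γδ+ and 1 and 9 in WT DN3a. The quartiles were 1 and 3 UMIs in WT DN4 γδ+ and 2 and 6 in WT DN3a, so the sums were lower in the middle of the distribution as well as at its top. Idi1 alone was seen in 4.77% of thinned WT DN4 γδ+ barcodes (95% interval 4.28% to 5.30%), against 25.9% to 31.9% in the other WT libraries, and unthinned in 9.48% against 41.5% to 70.8%. In the 58 thinned B-like barcodes of that library, 1 held an Idi1 UMI, 1.72% (0.0436% to 9.24%).

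**Figure D4:**
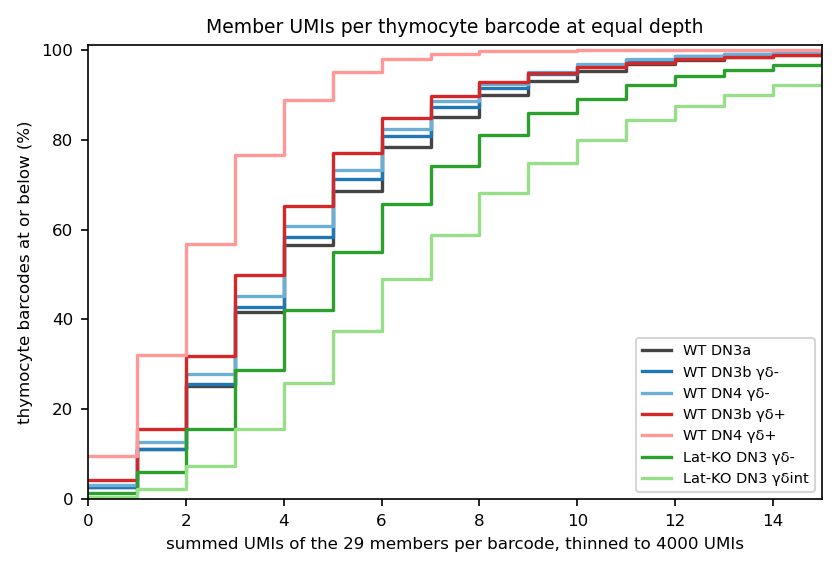
Cumulative percent of thymocyte barcodes (vertical axis) with at most the given number of UMIs of the 29 members (horizontal axis), each barcode thinned to 4000 UMIs, 1 line per library. The WT DN4 γδ+ line lies to the left with a median of 2 UMIs, and the Lat-KO DN3 γδint line to the right with a median of 7.

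The desaturase pair divided thymocytes from B cells. Scd1 and Scd2 put the same double bond into saturated fatty acids and sit close together on chromosome 19, at 44394455 to 44407879 and 44293674 to 44306864 (mm10). In thymocyte barcodes Scd2 stood at 211 CPM in WT DN3a, 103 then 109 in the γδ- DN3b and DN4 cells, 104 then 135 in the γδ+ DN3b and DN4 cells, and 195 and 197 in Lat-KO γδ- and γδint cells, and Scd1 at 1.0050 CPM in WT DN3a, 0.744 then 0.727 in the γδ- DN3b and DN4 cells, 0.388 then 0.372 in the γδ+ DN3b and DN4 cells, and 0.855 and 1.30 in Lat-KO γδ- and γδint cells. In B-like barcodes the order of the cell types was reversed for Scd1, at 209 CPM in WT DN3a, 184 then 200.3 in the γδ- DN3b and DN4 cells, 164 then 223 in the γδ+ DN3b and DN4 cells, and 246 and 246 in Lat-KO γδ- and γδint cells. Scd2 had 34.9 CPM in WT DN3a, 62.4 then 52.4 in the γδ- DN3b and DN4 cells, 43.0 then 39.9 in the γδ+ DN3b and DN4 cells, and 24.3 and 45.6 in Lat-KO γδ- and γδint cells there. The ranges over 7 libraries did not overlap for either gene: Scd1 was at most 1.30 CPM in thymocytes and at least 164 in B-like barcodes, and Scd2 at least 103 CPM in thymocytes and at most 62.4 in B-like barcodes. After thinning, Scd1 was seen in 0.159% to 0.463% of thymocyte barcodes and 44.4% to 62.5% of the 24 to 58 B-like ones, and Scd2 in 33.4% to 54.7% and 6.12% to 25.8%. Unthinned, Scd1 was seen in 0.299% to 1.33% and 38.2% to 61.3%, at median depths of 5737.5 to 18506 UMIs in thymocyte and 2421 to 3693.5 UMIs in B-like barcodes. The part that free RNA of the spiked B cells has in the Scd1 counts of thymocytes was not tested, and the counts may share reads between family members. T cell markers summed to 341 to 746 CPM in the B-like barcodes. Among the thymocytes, Scd2 was highest in WT DN3a and about 2-fold lower in WT DN3b γδ- and WT DN3b γδ+, at -1.03 (-1.06 to -0.999) and -1.02 (-1.05 to -0.98), while WT DN4 γδ+ had -0.64 (-0.68 to -0.60).

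**Figure D5:**
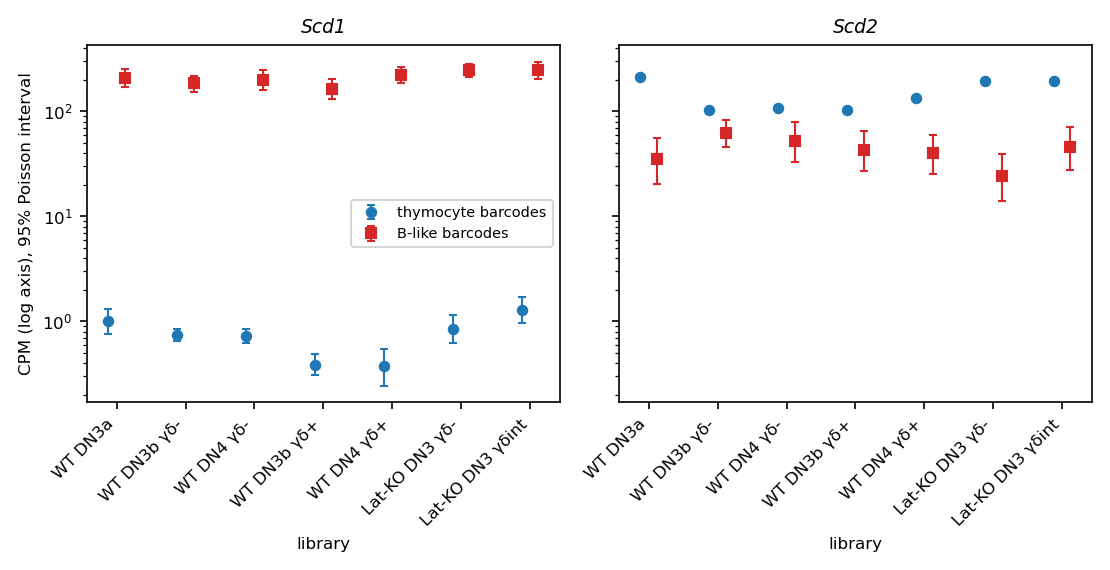
CPM (log axis) of Scd1 and Scd2 in thymocyte and B-like barcodes of the 7 libraries, 1 point per library with 95% Poisson intervals. Scd1 lies at 164 to 246 CPM in B-like and 0.372 to 1.30 CPM in thymocyte barcodes, and Scd2 at 24.3 to 62.4 and 103 to 211 CPM.

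Other lipid genes, grouped by function, did not all follow the members in WT DN4 γδ+. Desaturases of polyunsaturated fatty acids were lower with them: Fads2 stood at 4.64 CPM in WT DN4 γδ+ and 57.6 in WT DN3a, a log2 ratio of -3.63 (-3.80 to -3.47), and Fads1 had -1.25 (-1.40 to -1.11). The list of 13 genes for activation, elongation and desaturation had a median of -0.23, beside -0.01 over all genes, with 2 of 13 at least 2-fold lower, beside 8.46%. Mbtps1 and Mbtps2, the proteases that release SREBP, had -1.05 (-1.12 to -0.98) and -0.50 (-0.65 to -0.36). The 9 genes that use isoprenoids had a median of -0.08 with none 2-fold apart, and the 8 of fatty acid oxidation 0.32, also with none. Without ribosomal and mitochondrial UMIs the medians of these 3 lists were -0.35, -0.19 and 0.21. The 4 genes of sterol transport and storage had a median of -0.47. Abca1, which exports cholesterol and is a target of the sterol receptor LXR, was higher in WT DN4 γδ+, at 6.37 CPM against 2.55 in WT DN3a, a ratio of 1.32 (1.04 to 1.61). Abca1 was much lower in WT DN3b γδ-, at -4.14 (-4.64 to -3.66), and in WT DN3b γδ+, at -3.64 (-4.19 to -3.12), and so was the exporter Abcg1, at -2.10 (-2.16 to -2.04) and -2.43 (-2.503 to -2.36). With 2.55 CPM in WT DN3a and less in both DN3b libraries, Abca1 stayed under the 5 CPM minimum in these comparisons. The 5 genes of sterol efflux and LXR had medians of -2.05 and -1.85 in the γδ- DN3b and DN4 cells, of -1.17 and 0.77 in the γδ+ DN3b and DN4 cells, and of -0.13 and -0.48 in the γδ- and γδint cells of the Lat-KO mice, where TMM scaling gave -0.32 and -0.84. Npc1, which moves cholesterol out of lysosomes, had -1.42 (-1.49 to -1.36) in WT DN3b γδ- and -0.87 (-0.95 to -0.78) in WT DN4 γδ+.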

How the data were processed

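The files were matrices of UMI counts per gene and barcode for 7 libraries, 1 per group, with 8275 to 20946 barcodes each. The authors made these counts with Cell Ranger and deposited them filtered to cell barcodes and not normalized. The file headers give version 4.0.0 and the submitters' processing notes version 5.0.1, with R 3.6.3, Seurat 3.1.5 and the mm10 build. Trdc is an edited feature. Barcodes with fewer than 200 genes or more than 15% mitochondrial UMIs were left out (79076 of 90016 passed), as were 7995 with more than 1 UMI of Cd79a, Cd79b and Ms4a1. B-like barcodes had at least 10 of these UMIs and at least 2 times those of Cd3d, Cd3e, Cd3g, Lck and Thy1. No doublet caller was run, and an alternative left out the 8% deepest barcodes. Cycling meant at least 2 UMIs of Mki67 and Top2a, non-cycling 0, and barcodes with 1 were in neither state.

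UMIs were summed per library and state, and CPM was given with exact Poisson 95% intervals, log2 ratios with exact conditional binomial ones and shares with Clopper-Pearson ones. These cover counting error only, since libraries are the unit and none is replicated. A ratio needed more than 3 UMIs in 1 of the groups. Called means at least 2-fold. Thinning used seed 52. The members, gene lists and alternatives were chosen with earlier results of these data known. Values in every library are printed for the 12 members with the widest log2 range over the WT libraries among those of at least 10 CPM in 1 WT library, and for the Insig, Srebf and Scd pairs. At most the 2 highest and 2 lowest genes of each other list are named. A few further members (Hmgcs1, Pmvk, Mvd, Ebp) were given in every library after their values were seen. Hmgcs1, Fdft1, Lss, Cyp51, Tm7sf2, Srebf1 and Acaca overlap another annotated feature, and Acat2, Scd1 and Scd2 have near paralogues, so reads may be shared. Gene positions are from GENCODE vM21 and promoter windows from RefSeq (GRCm38.p6). The scripts were tested on simulated data. Tools were R 4.3.3 with edgeR 4.0.16, for TMM factors alone, and Python 3.11.15 with pandas 2.3.3, matplotlib 3.10.9, scipy 1.17.1 and numpy 2.4.6.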

Additional observations from a re-analysis of the deposited data

Results flagged for a closer look

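For 10 of the 29 members, cycling and non-cycling barcodes differed in opposite directions in the 2 γδ+ WT libraries, with intervals on either side of 0. Among genes that reached 5 CPM in 1 of the states of each library this held for 9 of 25 members, beside 4.07% of 8580 genes. The difference between the libraries was itself not tested, since each is a single library. As log2 ratios of cycling over non-cycling barcodes, Idi1 had -0.444 in WT DN3b γδ+ and 1.86 in WT DN4 γδ+, Sqle -0.496 and 1.49, and Cyp51 -0.374 and 1.48. Fdps had -0.284 and 0.992, Hsd17b7 -0.633 and 0.902, and Fasn -0.181 and 0.708. Smaller values were found for Hmgcs1 at -0.319 and 0.379, Insig1 at -0.311 and 0.344, Fdft1 at -0.35 and 0.321, and Srebf2 at -0.336 and 0.256. With TMM scaling the intervals of Idi1 and Sqle alone, of these 10, still lay on either side of 0. Fasn (0.10 and 0.75) and Fdps (0.00147 and 1.04) no longer had opposite signs. Insig2 and Scd2 were then opposite as well, so 4 of 25 members compare with 10.8% of all genes so scaled. Without barcodes that held a B cell marker UMI, and without the 8% deepest barcodes, the intervals of 8 of the 10 lay on either side of 0. Insig1 and Fasn were the exceptions. In each of these settings 7 of 25 members were opposite, beside 3.8% and 3.5% of all genes. Weighting barcodes equally gives no interval and left 8 with opposite signs, without Cyp51 and Srebf2. Under the other 6 alternatives the intervals of all 10 lay on either side of 0. With states called after thinning this held for 15 of 25 members, beside 12.7% of all genes. In the remaining ones it held for 9 or 10 of 25, beside 3.96% to 4.9%. Non-cycling barcodes numbered 1053 in WT DN3b γδ+ and 5600 in WT DN4 γδ+, with median depths of 7319 and 5638 UMIs, against 17238 and 16115.5 UMIs for cycling ones.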

How the results depend on the processing

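No paired analysis was possible because each group had 1 library. Counts are of all 29 members. For WT DN4 γδ+ over WT DN3a no member changed sign under any alternative, and the median moved most without ribosomal and mitochondrial UMIs, to -1.08. That setting gave medians over WT DN3a of -0.18 in WT DN3b γδ-, -0.40 in WT DN3b γδ+, and 0.25 and 0.43 in the Lat-KO γδ- and γδint libraries (γδint non-cycling 0.42). It left 0 members at least 2-fold higher in any of the 6 libraries, beside 2.37% to 9.96% of all genes. At least 2-fold lower were 2 in WT DN4 γδ-, beside 22.7%. In WT DN3b γδ+ there were 7, of which 6 reached 5 CPM, so 6 of 28 compare with 21.4%. TMM scaling gave 0.30, 0.17 and 0.073 in WT DN3b γδ-, WT DN4 γδ- and WT DN3b γδ+, with 4, 2 and 2 members at least 2-fold higher and 0, 1 and 2 lower, and 0.18 and 0.41 in the Lat-KO γδ- and γδint libraries (non-cycling 0.20 and 0.29) with 0 higher. For cycling over non-cycling barcodes it gave 0.43, 0.62, 0.10 and 0.24 in WT DN3b γδ-, WT DN4 γδ-, WT DN3b γδ+ and Lat-KO DN3 γδint. It added 0.36, 0.39, 0.29 and 0.20 to the ratios of all genes there. Between libraries, γδ+ over γδ- at DN3b had -0.33 with TMM scaling, -0.33 without ribosomal and mitochondrial UMIs and -0.15 with barcodes weighted equally. WT DN4 γδ+ over WT DN3b γδ+ had -0.86 with TMM scaling, -0.80 with equal weights and -0.77 over members of at least 10 CPM, and Lat-KO γδint over γδ- had 0.22 with TMM scaling and 0.18 without ribosomal and mitochondrial UMIs. Equal weights gave -0.13 in WT DN3b γδ+ over WT DN3a, and members of at least 10 CPM 0.022 in WT DN3b γδ-. Beyond the scaling itself, the cause of these moves was not tested. Scd1, at the edge of detection in thymocytes, reversed in non-cycling WT DN4 γδ- over WT DN3a, from 1.23 to -0.51 with a T cell marker and depth minimum and -0.13 with states called after thinning, and in cycling over non-cycling WT DN3b γδ+, from -1.52 to 0.034 with that minimum.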

Other observations

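Genes around the members also differed between the WT libraries. Pdss1, which starts the side chain of ubiquinone from isoprenoid units, stood at 12.8 CPM in WT DN3b γδ- and 13.4 in WT DN3b γδ+, against 4.86 in WT DN3a, log2 ratios of 1.40 (1.22 to 1.58) and 1.47 (1.28 to 1.66). Acss2, which makes acetyl-CoA from acetate, was lower in both, at -1.66 (-1.77 to -1.54) and -1.67 (-1.80 to -1.54), and nearer to WT DN3a in WT DN4 γδ+, at -0.32 (-0.45 to -0.19). Hsd17b12, an enzyme of fatty acid elongation, was higher in WT DN3b γδ+, at 1.33 (1.26 to 1.40), and the ligase Acsl3 in WT DN3b γδ- and WT DN4 γδ-, at 1.10 (0.98 to 1.22) and 1.23 (1.11 to 1.35). TMM scaling would add 0.40, 0.40 and 0.30 to all ratios of WT DN3b γδ-, WT DN4 γδ- and WT DN3b γδ+ over WT DN3a, which turns none of these.

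In the Lat-KO libraries the list of other lipid genes with the highest median in γδint cells was fatty acid oxidation, at 0.96 over 8 genes, 3 of them at least 2-fold higher, beside 14.1% of all genes and a median of 0.46 over them. Acadvl, a dehydrogenase for long chains, stood at 46.3 CPM against 21.2 in WT DN3a, a log2 ratio of 1.13 (1.02 to 1.24). Cpt2, which hands fatty acids to the mitochondrial matrix, had 1.04 (0.80 to 1.28) in γδ- and 1.05 (0.80 to 1.31) in γδint cells. TMM scaling would lower these ratios by 0.20 in γδ- and 0.36 in γδint cells, so that none of the 8 genes is 2-fold higher in either and the γδint median is 0.60, and the share of ribosomal UMIs differed as given for the members. Abca1 was lower in γδint cells, at -1.95 (-2.62 to -1.33).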
